A study of Austrofundulus limnaeus and Nothobranchius furzeri and Aphyosemion australe with 30 samples.

Results

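Broad accessible regions of the African turquoise killifish genome are described here through diapause and development. They were taken from the consensus ATAC-seq peaks of this species as all peaks with a width of at least 1000 bp, which gave 3428 of 60359 peaks (5.68%), and the other 56931 peaks are called narrow. The width came from the authors' table, and no value column was used to choose the peaks. The widths rest on peaks called from the reads of the same libraries, so that the choice is not independent of signal. Whether it favoured peaks of a stage was not tested. The study profiled embryos of several killifish species to compare accessible chromatin in diapause with that in development.

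All embryos were wild-type and untreated, and each library was made from about 10 pooled embryo bodies, dissected free of chorion, enveloping layer and yolk, and about 25000 nuclei. The diapause libraries came from embryos on day 6 of diapause (Dia 6d, 2 libraries) and after 1 month of diapause (Dia 1m, 3 libraries). The development libraries came from embryos with a Kupffer's vesicle, the stage before diapause (Pre-Dia, 2 libraries), and from embryos developing without diapause at a heart rate above 60 beats per minute (Dev, 2 libraries). Per the study's methods the Pre-Dia embryos came from the earliest clutches of young parents, most of which skip diapause, so that they stand for embryos bound for development. A whole embryo mixes many cell types, so that a change in the share of a cell type and a change within its cells cannot be told apart.

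Killifish diapause is a reversible arrest of embryonic development that lets an annual fish outlast the dry season in its egg. ATAC-seq marks open chromatin by letting the Tn5 transposase insert adapters where DNA is not wrapped in nucleosomes, and reads pile up at promoters and enhancers. Most open sites are short because an active element displaces only a few nucleosomes, whereas long open stretches are known at promoters of highly expressed genes, at CpG-rich promoters and at clustered enhancers. The deposited table does not pair peaks with genes, and no annotation of this assembly was used here, so the peaks are called by their numbers in the table.

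Values are normalized reads per peak, the number of reads in a peak times 1 factor per library, and they are not divided by peak width. The recovered reads in consensus peaks came to between 2255293 and 6235813 per library. The Dev libraries were the deepest (6235813 and 5177568 reads) and the Pre-Dia libraries the shallowest (3046938 and 2255293 reads). How depth enters into differences between these stages was not tested. Over broad peaks the median was 89 to 290 reads per library, against 23 to 56 reads over all peaks. No broad peak had a value of 3 reads or fewer in any library (0 of 3428 peaks, the lowest being 7 reads), while 4249 narrow peaks (7.46%) had at least 1 such value. Per the study's methods some libraries were over-transposed, and which of them were is not given in the sources used here.

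The broad peaks covered 4.27 Mb, or 14.4% of the length of all consensus peaks. Their median width was 1175 bp, against 421 bp over all peaks. There were 422 peaks of at least 1500 bp, 63 of at least 2000 bp and 1 of at least 3000 bp. The widths ran on across the threshold, with 18 peaks of exactly 1000 bp and 6 of 999 bp. Just inside it, peak_54245 averaged 1052 ± 391 normalized reads in diapause and 661 ± 171 in development, and peak_574 averaged 310 ± 80.6 in diapause and 276 ± 31.9 in development (SD, n = 5 and 4 libraries). Just outside it, peak_21793 averaged 159 ± 20.6 in diapause and 137 ± 71.9 in development, and peak_39847 averaged 152 ± 25.8 in diapause and 110 ± 44.3 in development.

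Broad peaks were also denser in reads than narrow peaks. The median broad peak held 148 normalized reads over the 9 libraries, against 31.6 for the median narrow peak, a ratio of 4.69. Per kb of width the medians were 121 for broad peaks and 79.5 for narrow peaks, a ratio of 1.53. Signal per kb was 117 in peaks of 1000 to 1249 bp, 125 in peaks of 1250 to 1499 bp, 138 in peaks of 1500 to 1999 bp and 155 in wider peaks, so that the widest class was the densest. Among narrow peaks the lowest median per kb, 73.4, was in peaks of 300 to 499 bp. Width and signal were drawn from the same reads, so that they are not independent measures.

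**Figure D1:**
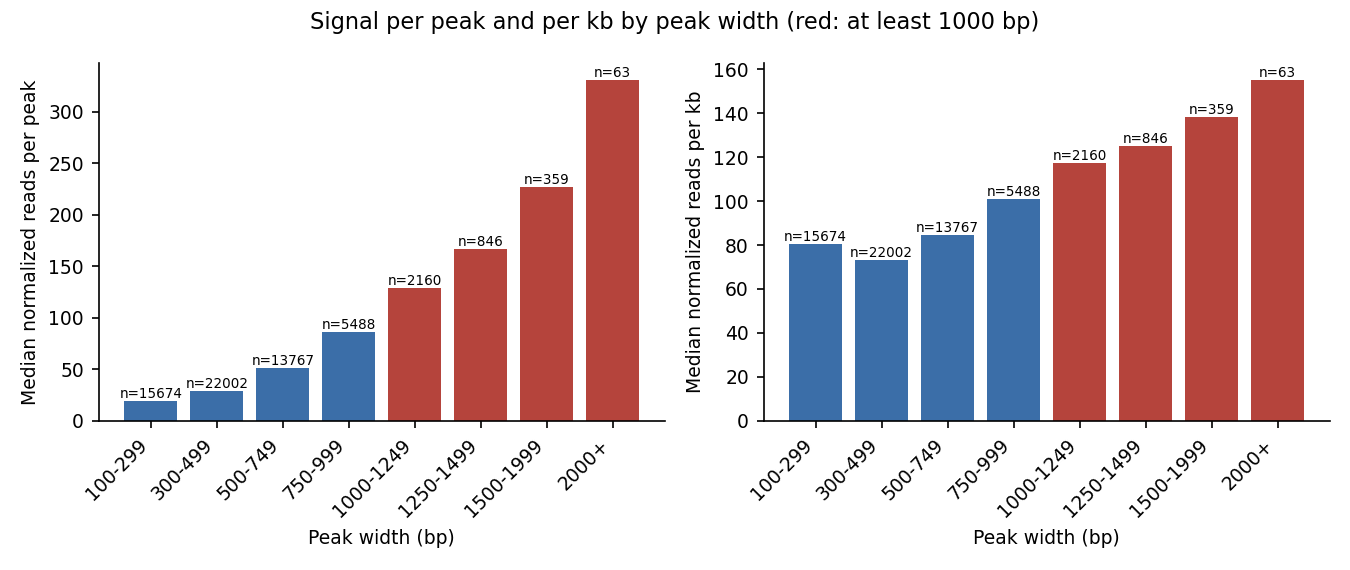
Median normalized reads per peak (left axis panel) and per kb of width (right axis panel) by class of peak width in bp, over the mean of 9 libraries, with the number of peaks above each bar and classes of at least 1000 bp in red. The median per peak was 330 in the widest class and 18.8 in the narrowest, while the median per kb was 155 and 80.3 in the same classes.

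Of the broad peaks, 2444 lay on the 19 assembled chromosomes, where they made up 5.21% of peaks, and 984 lay on 747 unplaced scaffolds, where they made up 7.34%. The share per chromosome ran between 4.39% on NC_029650.1 and 5.97% on NC_029651.1, with 51 to 219 broad peaks per chromosome. The median gap to the nearest other peak was 6025 bp for broad peaks and 4474 bp for narrow peaks. Peaks of at least 1000 bp made up 4.79% of consensus peaks in the South American killifish, 7.39% in the lyretail killifish and 1.12% in the red-striped killifish, whose reads were aligned to the lyretail genome. Those tables were called and normalized separately, so that these shares are given side by side only.

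The strongest broad peaks dwarfed the rest. Peak_60277, at NW_015449350.1:1498-2888, had 13503 and 21237 normalized reads in the Dia 6d libraries, 27675, 17833 and 43472 in the Dia 1m libraries, 18745 and 24447 in the Pre-Dia libraries and 12961 and 16277 in the Dev libraries. Peak_53694 averaged 17150 ± 6184 normalized reads in diapause and 15066 ± 4105 in development, and peak_16579 averaged 9123 ± 2938 in diapause and 5717 ± 1148 in development (SD, n = 5 and 4). In all 3 of them Dia 1m replicate 3 was the highest library. None of the 3 passed the limma test between diapause and development (adjusted p = 0.699, 0.913 and 0.262). The 4 strongest broad peaks took 2.73% of the normalized reads of Dia 1m replicate 3 and 0.892% to 1.87% in the other 8 libraries.

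The widest broad peaks did not pass the test either. Peak_654, 3467 bp long at NC_029649.1:15264139-15267605, had 1598 and 1522 normalized reads in Dia 6d, 2338, 1223 and 3939 in Dia 1m, 1709 and 1898 in Pre-Dia and 1407 and 1324 in Dev. Its diapause and development libraries overlapped, and its pooled log2 difference was 0.25 ± 0.29 (SE, adjusted p = 0.620). For peak_27520, 2971 bp long, the difference was 0.48 ± 0.25 (adjusted p = 0.227), and for peak_22735, 2949 bp long, it was 0.20 ± 0.24 (adjusted p = 0.642).

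Some broad peaks hardly varied. The steadiest of those with at least the median signal was peak_55329, at NW_015445904.1:123-1498, with 274 and 285 normalized reads in Dia 6d, 252, 307 and 260 in Dia 1m, 288 and 284 in Pre-Dia and 294 and 293 in Dev. Its SD over the 9 libraries was 0.09 on the log2 scale. For peak_17718 the SD was 0.12 and for peak_14209 it was 0.14. Over all broad peaks the median SD of log2 values was 0.43, against 0.47 for narrow peaks of matched mean signal and 0.56 for all peaks. Within stages the pooled SD was 0.32 for broad peaks, 0.36 for matched narrow peaks and 0.46 for all peaks.

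The comparison of diapause with development asked which broad peaks opened or closed. Here the averaged diapause stages were set against the averaged development stages, with limma on log2(value + 1) over all 60359 peaks and an adjusted p below 0.05. In diapause 219 broad peaks were higher (6.39%) and 282 were lower (8.23%), beside 6.00% higher and 5.27% lower among all peaks. Higher calls were thus about as common among broad peaks as among all peaks in this fit, and lower calls were more common. With other settings the share of higher calls lay on either side of that of all peaks, at 9.89% of broad and 7.09% of all peaks by DESeq2 and at 2.98% and 4.63% with values per kb. The median log2 difference was 0.03 over broad peaks and -0.00 over all peaks. Of the 501 broad peaks called, 43.7% were higher in diapause. After quantile normalization the share was 32.5% (272 higher and 566 lower), and with values per kb it was 37.6%. It was 48.2% by edgeR, 50.7% by DESeq2 (339 and 330) and 54.9% with replicate number as a block in the fit (517 and 425). Lower calls thus did not outnumber higher calls under every setting. At an unadjusted p below 0.05, 1080 broad peaks (31.5%) differed, beside 26.1% of all peaks.

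Both counts depended on single libraries. Leaving out Dia 6d replicate 1 gave 82 higher and 138 lower broad peaks, and leaving out Dia 6d replicate 2 gave 72 and 122. The counts were 130 and 187 without Dia 1m replicate 1, 402 and 538 without Dia 1m replicate 2, and 555 and 467 without Dia 1m replicate 3. With Pre-Dia replicate 1 left out they were 88 and 118, with Pre-Dia replicate 2 left out 88 and 157, with Dev replicate 1 left out 125 and 142, and with Dev replicate 2 left out 62 and 116. Without Dia 1m replicate 2 the higher share was 11.7% of broad and 7.90% of all peaks, and without Pre-Dia replicate 1 it was 2.57% and 3.54%. The lower share of broad peaks exceeded that of all peaks with any 1 library left out, at 3.38% and 1.54% without Dev replicate 2 and 15.7% and 8.55% without Dia 1m replicate 2. Among these counts, lower calls outnumbered higher calls except without Dia 1m replicate 3. Nothing in the labels says that replicates came from separate clutches, so p-values measure the spread between these libraries, which may be technical.

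Among the called peaks the median change was of like size in both directions, a log2 difference of 0.92 for the 219 higher peaks and -0.92 for the 282 lower peaks. A change of at least 1 on this scale was reached by 83 of the higher peaks and 108 of the lower peaks. Called or not, 191 of the 3428 broad peaks reached it, beside 6336 of all 60359 peaks, so that it was less common among broad peaks. The higher peaks had a median of 180 normalized reads and a width of 1144 bp, and the lower peaks a median of 139 normalized reads and a width of 1192 bp. Dia 1m stood above Dia 6d in 143 of the higher peaks (65.3%) and in 106 of the lower peaks (37.6%). Over all broad peaks the share was 58.8%, and over all peaks it was 50.5%. Dev stood above Pre-Dia in 154 of the higher peaks (70.3%) and in 131 of the lower peaks (46.5%). Over all broad peaks the share was 62.8%, and over all peaks it was 49.7%. These are descriptions of peaks chosen by the pooled contrast, with no test of the shares.

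Broad peaks hold more reads, which gives a test more power, and narrow peaks were therefore weighted so that their mean log2 value, in bins of 0.25, followed the distribution of the broad peaks, which matched 3423 broad peaks with 32407 narrow peaks and left 5 broad peaks unmatched. The matched narrow peaks had a median width of 691 bp and 226 normalized reads per kb. Of broad peaks 6.40% were higher in diapause, against 12.5% of matched narrow peaks, a difference of -6.12 percentage points. Of broad peaks 8.24% were lower, against 5.72% of matched narrow peaks, a difference of 2.52 points. The median log2 difference was 0.03 for broad peaks and 0.18 for matched narrow peaks. With all libraries the median of the narrow peaks of like signal thus leaned further toward diapause than that of the broad peaks. This describes these libraries, with no test of the difference. The size of the lean depended on Dia 1m replicate 2 and on the normalization. Without that library the medians were -0.02 for broad and 0.07 for matched narrow peaks, and after quantile normalization they were -0.06 and 0.07. With matching on signal per kb instead, 6.39% of broad and 9.57% of narrow peaks were higher, a difference of -3.18 points, and the medians were 0.03 and 0.08.

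Leaving out a library kept the signs of these differences and moved their sizes. The difference in the median was -0.15 with all libraries and -0.086 without Dia 1m replicate 2. The difference in the share called higher was -12.3 points without Dia 1m replicate 3 and between -6.15 and -2.58 points without any other library. It was -2.87 and -2.58 with Dia 6d replicates 1 and 2 left out, -3.82 with Dia 1m replicate 1 left out, -4.00 and -4.05 with Pre-Dia replicates 1 and 2 left out, and -3.26 with Dev replicate 2 left out. The difference in the share called lower was 4.39 points with Dia 1m replicate 3 left out, 1.35 and 0.92 with Dia 6d replicates 1 and 2 left out, 1.33 with Dia 1m replicate 1 left out, 1.51 with Pre-Dia replicate 1 left out, and 1.55 and 1.63 with Dev replicates 1 and 2 left out.

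**Figure D2:**
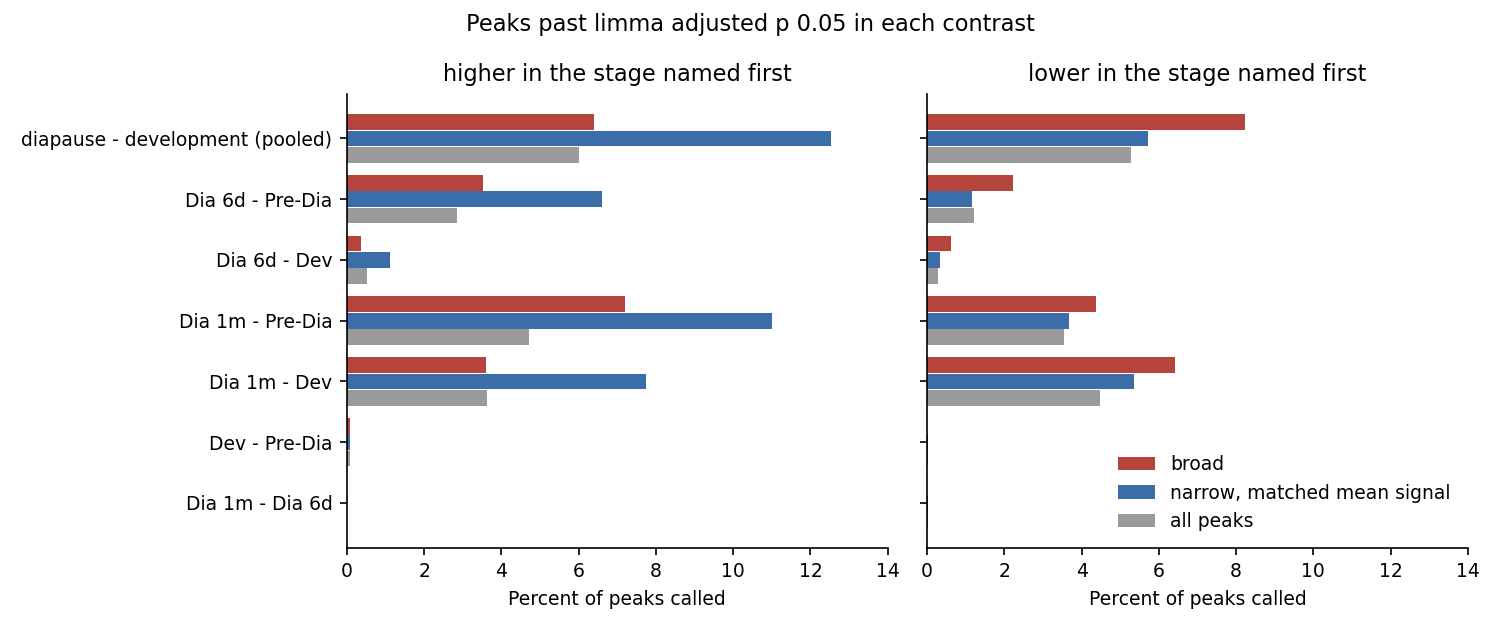
Percent of peaks past a limma adjusted p of 0.05 that were higher (left panel) or lower (right panel) in the stage named first in each contrast, for broad peaks, narrow peaks of matched mean signal and all peaks. In the pooled contrast the higher bars stand at 6.39%, 12.5% and 6.00% and the lower bars at 8.23%, 5.72% and 5.27%, and nearly no peak was called in the Dev - Pre-Dia and Dia 1m - Dia 6d contrasts.

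Higher calls were less frequent among broad than among narrow peaks along most of the range of signal. Among peaks with a mean log2 value of 6.25 to 7, 5.41% of 961 broad peaks were higher in diapause and 11.4% were lower, against 12.2% and 7.36% of 4893 narrow peaks. Between 7 and 7.75, 6.71% of 1014 broad peaks were higher and 9.17% lower, against 13.2% and 5.41% of 2032 narrow peaks. Between 7.75 and 8.5, 8.72% of 619 broad peaks were higher and 6.30% lower, against 15.6% and 3.91% of 742 narrow peaks. At 8.5 and above, 5.71% of 315 broad peaks were higher and 1.90% lower, against 9.65% and 2.70% of 259 narrow peaks. Lower calls were thus more frequent among broad peaks in the middle bins and not at either end. The median log2 difference was -0.02 for broad and 0.18 for narrow peaks between 7 and 7.75. At 8.5 and above it was 0.20 and 0.30, so that with all libraries the strongest broad peaks leaned toward diapause too. The bins were not computed with a library left out. In the lowest bin, below 5.5, 3 of only 51 broad peaks were higher, against 3.86% of 39758 narrow peaks, most of which held less signal.

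**Figure D3:**
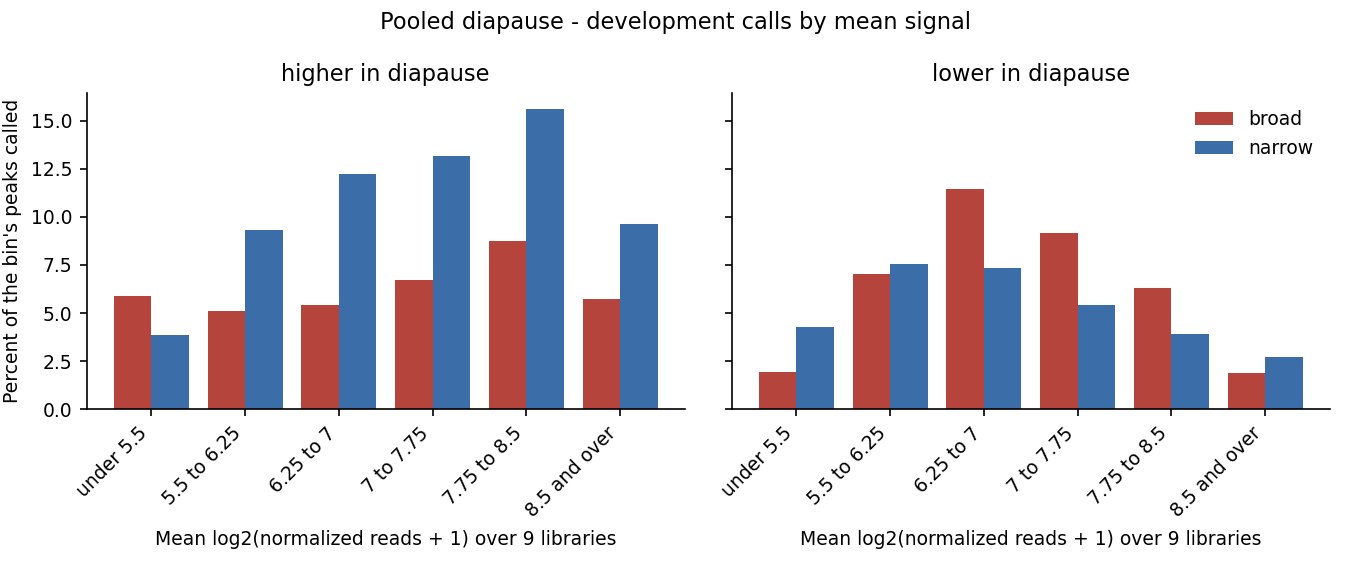
Percent of broad and narrow peaks called higher (left panel) or lower (right panel) in diapause in the pooled contrast, by bins of mean log2(normalized reads + 1) over 9 libraries. In each bin from 5.5 upward a smaller share of broad than of narrow peaks was higher, with the widest gap at 7.75 to 8.5 (8.72% and 15.6%).

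Within the broad peaks the calls shifted with read density. With the broad peaks split into 4 classes of equal size by reads per kb, 37 of 857 peaks were higher in diapause and 62 were lower in the sparsest class. The next 2 classes had 48 and 55 higher and 98 and 83 lower peaks. In the densest class, from 186 normalized reads per kb upward, 79 peaks (9.22%) were higher and 39 (4.55%) were lower. In this fit the densest broad peaks thus had more higher than lower calls, the reverse of the other 3 classes. The split was not repeated with a library left out or under other settings. Over all peaks 6.00% were higher and 5.27% lower. A shift was seen in narrow peaks too, by mean signal per peak, as narrow peaks were not split by reads per kb. Among narrow peaks 9.31% were higher and 7.55% lower at a mean log2 value of 5.5 to 6.25, and 15.6% and 3.91% at 7.75 to 8.5. Density was taken from the mean of 5 diapause and 4 development libraries, so that it is not independent of the calls. By width, 6.90% of peaks of 1000 to 1249 bp, 5.20% of 1250 to 1499 bp, 6.13% of 1500 to 1999 bp and 6.35% of wider peaks were higher. On assembled chromosomes 6.79% were higher and 8.14% lower, and on scaffolds 5.39% were higher and 8.43% lower.

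Libraries were also compared without any call. The median log2 value of broad peaks minus that of matched narrow peaks was -0.09 and -0.13 in the Dia 6d libraries, -0.10, -0.16 and 0.19 in the Dia 1m libraries, 0.11 and 0.12 in the Pre-Dia libraries and 0.12 and 0.08 in the Dev libraries. Broad peaks thus stood below narrow peaks of like mean signal in 4 of 5 diapause libraries and above them in all 4 development libraries, and Dia 1m replicate 3 was the exception. The mean was -0.06 ± 0.14 in diapause and 0.11 ± 0.02 in development (SD, n = 5 and 4), and -0.12 ± 0.03 in diapause without Dia 1m replicate 3 (n = 4). The matching sets the average over the 9 libraries near 0, so that a lower value in some libraries goes with a higher one in others. Dia 1m replicate 3 took 21.8% of its normalized reads from broad peaks, the highest share of any library.

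**Figure D4:**
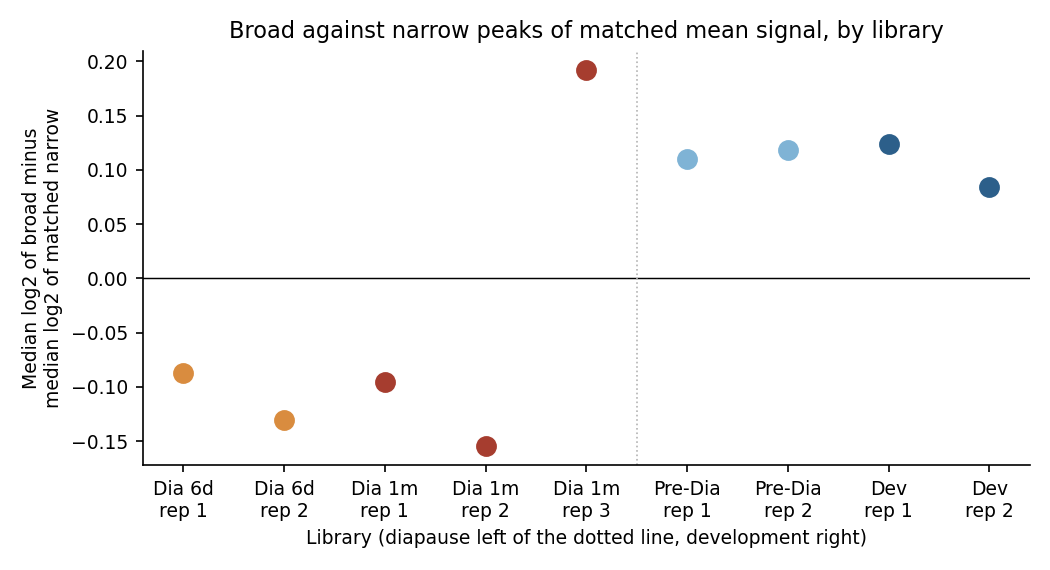
Median log2 value of broad peaks minus the median of narrow peaks of matched mean signal in each of the 9 libraries, coloured by stage. The 4 development libraries sit between 0.08 and 0.12 and 4 diapause libraries between -0.16 and -0.09, while Dia 1m replicate 3 sits at 0.19.

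The share of normalized reads in broad peaks was about equal in both states. It was 19.4% and 20.0% in Dia 6d, 20.6%, 21.0% and 21.8% in Dia 1m, 20.1% and 19.8% in Pre-Dia and 20.9% and 20.6% in Dev. The means were 20.6 ± 0.93% in diapause and 20.4 ± 0.48% in development (SD, n = 5 and 4), and the groups overlapped. Leaving out the 4 strongest peaks gave 19.2 ± 0.63% in diapause and 19.3 ± 0.79% in development.

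Taking each broad peak by its highest stage, Dia 6d led in 480 (14.0%), Dia 1m in 1053 (30.7%), Pre-Dia in 663 (19.3%) and Dev in 1232 (35.9%). Over all peaks the shares lay between 20.2% for Dia 6d and 28.5% for Pre-Dia, and over matched narrow peaks they were 24.0% for Dia 6d, 31.6% for Dia 1m, 14.8% for Pre-Dia and 29.6% for Dev. By single library, Dia 1m replicate 2 was highest in 1194 broad peaks (34.8%), against 20.8% of all peaks. This library also had the largest total of normalized reads over all peaks, 4163216, against 3366022 to 3653344 in the others. How far this total enters into such counts was not tested. Dia 1m replicate 3 was lowest in 820 broad peaks (23.9%), against 16.9% of all peaks. It was highest in 574 (16.7%), against 18.3% of all peaks. The Dia 1m libraries therefore marked both ends of the range in many broad peaks. Among the 219 peaks higher in diapause, Dia 1m replicate 2 was the highest diapause library in 166 (75.8%) and Dia 1m replicate 3 the lowest in 117 (53.4%). These shares were 54.2% and 40.3% over all broad peaks and 30.5% and 30.6% over all peaks.

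Complete separation of the groups gave a second count that uses no model. In 161 broad peaks all diapause libraries were higher than all development libraries (4.70%, beside 4.46% of all peaks and 7.43% of matched narrow peaks), and 102 of these were also called. In 347 broad peaks all diapause libraries were lower than all development libraries (10.1%, beside 6.41% of all peaks and 6.58% of matched narrow peaks), and 239 of these were also called. The share above was close to that of all peaks and smaller than that of matched narrow peaks, while the share below exceeded both. Without Dia 1m replicate 3 there were 320 broad peaks above (9.33%, beside 8.37% of all and 17.9% of matched narrow peaks) and 398 below. Without Dev replicate 1 there were 395 above (11.5%, beside 7.73% and 13.6%) and 395 below, so that the share above then exceeded that of all peaks. Without any other single library there were 176 to 199 above and 354 to 489 below.

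The largest increase among broad peaks was at peak_56711, 1338 bp long at NW_015447614.1:3666-5003. It had 577 and 681 normalized reads in Dia 6d, 806, 907 and 529 in Dia 1m, 105 and 110 in Pre-Dia and 62.7 and 70.5 in Dev. Every diapause library stood far above every development library. The means were 700 ± 157 in diapause and 86.9 ± 23.8 in development (SD, n = 5 and 4), a ratio of 8.05, and the log2 difference was 2.99 ± 0.23 (SE, limma adjusted p = 6.71e-09). A narrow peak 181 bp away, peak_56712 of 318 bp, rose with it (log2 difference 3.15 ± 0.31, adjusted p = 4.64e-07).

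Peak_28150, at NC_029657.1:34380878-34382224, had 264 and 241 normalized reads in Dia 6d, 258, 385 and 169 in Dia 1m, 38.7 and 63.1 in Pre-Dia and 42.8 and 33.6 in Dev. The groups did not overlap, and the Dia 6d values lay inside the range of the Dia 1m values. The log2 difference was 2.53 ± 0.26 (adjusted p = 5.72e-07). Its nearest peak, 11642 bp away, was also higher in diapause (1.72 ± 0.33, adjusted p = 0.00124).

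At the next 2 of the largest increases all Dia 1m libraries exceeded both Dia 6d libraries. Peak_48740, at NW_015443843.1:46251-47712, had 246 and 240 normalized reads in Dia 6d, 480, 856 and 483 in Dia 1m, 89.5 and 105 in Pre-Dia and 79.1 and 66.4 in Dev. The difference of Dia 1m from Dia 6d there, 1.26 on the log2 scale, did not pass the test (adjusted p = 0.197). Peak_54359, at NW_015445289.1:8063-9085, had 124 and 133 normalized reads in Dia 6d, 136, 271 and 385 in Dia 1m, 33.1 and 46.5 in Pre-Dia and 42.8 and 35.6 in Dev. Their pooled differences were 2.15 ± 0.23 for peak_48740 (adjusted p = 1.50e-06) and 2.14 ± 0.27 for peak_54359 (adjusted p = 1.53e-05).

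The other increases started at different levels. Peak_33387, at NC_029659.1:30192475-30193786, had 685 and 757 normalized reads in Dia 6d, 673, 1047 and 452 in Dia 1m, 232 and 183 in Pre-Dia and 158 and 164 in Dev, so that even its lowest diapause library stood well above its highest development library. Its log2 difference was 1.94 ± 0.24 (adjusted p = 1.25e-05), and a narrow peak 490 bp away was higher as well (1.10 ± 0.26, adjusted p = 0.00595). Peak_5456, at NC_029650.1:29604401-29605773, had 406 and 355 normalized reads in Dia 6d, 358, 526 and 168 in Dia 1m, 74.0 and 55.6 in Pre-Dia and 135 and 121 in Dev. Here Dia 1m replicate 3 came close to the Dev libraries. The log2 difference was 1.93 ± 0.27 (adjusted p = 3.62e-05), and its nearest peak, a broad peak of 1548 bp at a distance of 9534 bp, was also higher (1.49 ± 0.27, adjusted p = 0.000682).

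**Figure D5:**
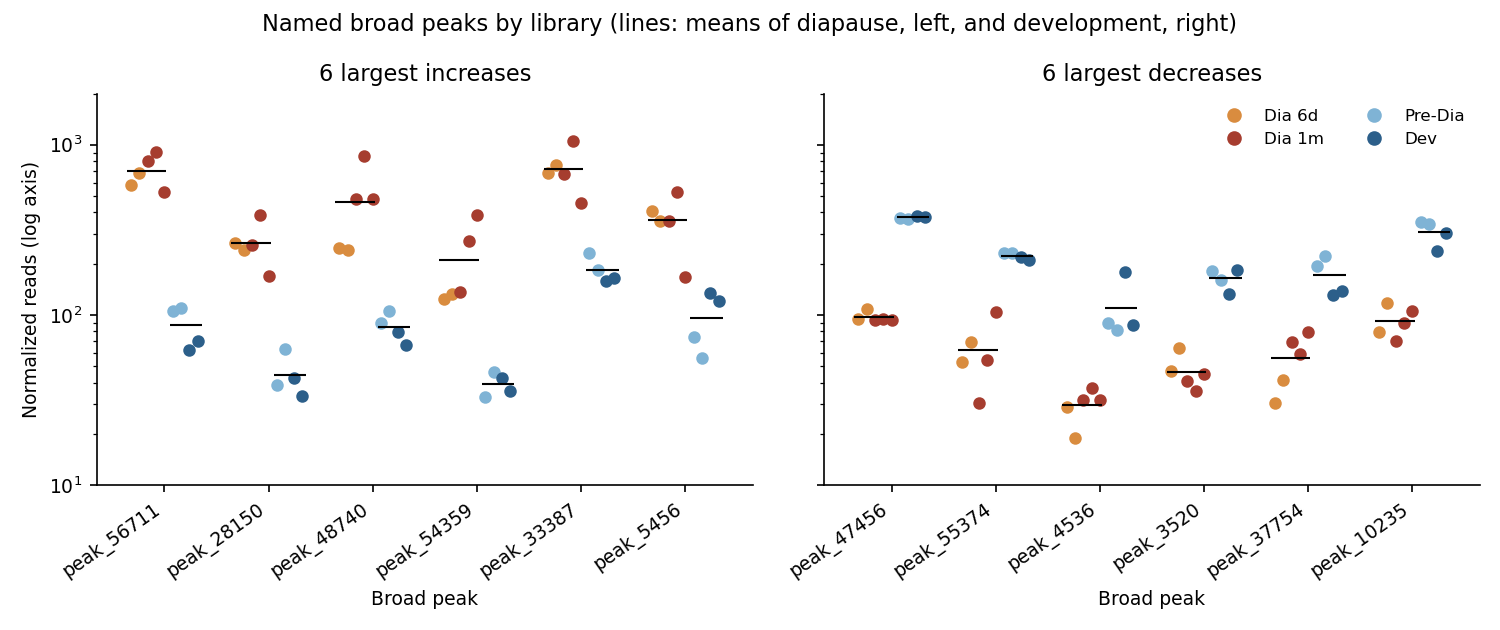
Normalized reads (log axis) of the 6 broad peaks with the largest increases (left panel) and the 6 with the largest decreases (right panel) in diapause, 1 point per library coloured by stage, with lines at the means of the 5 diapause and the 4 development libraries. The peaks were chosen among those whose groups do not overlap, and the diapause means run between 210 and 723 at the increases and between 29.6 and 96.8 at the decreases.

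The largest decrease was at peak_47456, 1242 bp long at NW_015443661.1:68564-69805. It had 94.2 and 108 normalized reads in Dia 6d, 93.4, 95.0 and 93.1 in Dia 1m, 372 and 366 in Pre-Dia and 383 and 378 in Dev. Both groups were tight, with means of 96.8 ± 6.53 in diapause and 375 ± 7.31 in development (SD, n = 5 and 4). Diapause held 0.258 times the signal of development, and the log2 difference was -1.93 ± 0.22 (adjusted p = 2.24e-06). Its nearest peak, 13765 bp away, had a difference of -0.00 ± 0.40 (adjusted p = 0.999).

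Peak_55374, at NW_015445923.1:8827-9838, had 52.9 and 69.3 normalized reads in Dia 6d, 30.4, 54.4 and 104 in Dia 1m, 230 and 233 in Pre-Dia and 220 and 211 in Dev. Its development libraries were close together and its Dia 1m libraries were not. The log2 difference was -1.92 ± 0.28 (adjusted p = 5.64e-05). Peak_4536, at NC_029650.1:2183836-2185055, had 28.7 and 19.0 normalized reads in Dia 6d, 31.5, 37.1 and 31.6 in Dia 1m, 89.5 and 81.1 in Pre-Dia and 179 and 87.2 in Dev. Dev replicate 1 stood apart from the other 3 development libraries there. The log2 difference was -1.85 ± 0.28 (adjusted p = 9.38e-05), and a narrow peak 4930 bp away fell too (-1.06 ± 0.30, adjusted p = 0.0213).

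The other 3 decreases were of like size. Peak_3520, at NC_029649.1:81032182-81033206, had 46.7 and 63.7 normalized reads in Dia 6d, 40.9, 35.9 and 45.2 in Dia 1m, 180 and 161 in Pre-Dia and 133 and 184 in Dev (log2 difference -1.77 ± 0.24, adjusted p = 3.44e-05). Peak_37754, at NC_029661.1:44439030-44440262, had 30.5 and 41.4 in Dia 6d, 69.3, 59.1 and 79.5 in Dia 1m, 194 and 221 in Pre-Dia and 132 and 139 in Dev (-1.74 ± 0.24, adjusted p = 3.36e-05). In peak_37754 the values of Dia 6d were the lowest and those of Pre-Dia the highest. Peak_10235, at NC_029651.1:62130194-62131294, had 79.9 and 117 in Dia 6d, 70.3, 89.2 and 106 in Dia 1m, 354 and 344 in Pre-Dia and 238 and 302 in Dev (-1.72 ± 0.23, adjusted p = 2.73e-05). All 12 peaks named for the pooled contrast passed the test under each of the 17 other settings tried. They were chosen in the same libraries as the largest called differences with separated groups, so these refits are no independent support.

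The stages were then compared in pairs. The counts do not rank the 2 diapause stages, because their order depended on the fit. With all 9 libraries in the fit, Dia 1m gave more calls than Dia 6d. With only the groups compared in the fit, Dia 6d gave 1111 calls against Pre-Dia and 662 against Dev. Dia 1m then gave 110 and 121. Dia 1m also had 3 libraries and Dia 6d had 2. These contrasts share libraries with each other and with the pooled one. Dia 6d against Pre-Dia gave 121 higher broad peaks (3.53%, beside 2.84% of all and 6.61% of matched narrow peaks) and 76 lower (2.2%, beside 1.22% and 1.15%). Lower calls were thus more common among broad peaks than in either background. The 197 calls became 3 and 5 with Dia 6d replicates 1 and 2 left out, and 14 and 9 with Pre-Dia replicates 1 and 2 left out. They became 96, 622 and 699 with Dia 1m replicates 1, 2 and 3 left out, and 97 and 101 with Dev replicates 1 and 2 left out, although these libraries enter only through the shared estimate of spread.

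Dia 6d against Dev gave 12 higher broad peaks (0.350%, beside 0.505% of all and 1.11% of matched narrow peaks) and 21 lower (0.613%, beside 0.280% and 0.343%). This count moved widely with the test, to 54 broad peaks by edgeR, 138 by DESeq2 and 662 with only Dia 6d and Dev in the limma fit. The 33 calls became 3, 2, 3 and 3 with Dia 6d replicates 1 and 2 and Dev replicates 1 and 2 left out in turn, and 16, 234 and 310 with Dia 1m replicates 1, 2 and 3 left out. With Pre-Dia replicates 1 and 2 left out they became 15 and 16.

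Dia 1m against Pre-Dia gave 247 higher (7.21%, beside 4.72% of all and 11% of matched narrow peaks) and 150 lower (4.38%, beside 3.56% and 3.68%). Higher broad peaks were more common than among all peaks and less common than among narrow peaks of like signal. The 397 calls became 248 and 251 when Dia 6d replicates 1 and 2 were left out, 156, 611 and 1021 when Dia 1m replicates 1, 2 and 3 were left out, and 56 and 51 when Pre-Dia replicates 1 and 2 were left out. Dia 1m against Dev gave 123 higher (3.59%, beside 3.63% and 7.73%) and 220 lower (6.42%, beside 4.48% and 5.35%). There the lower peaks outnumbered the higher ones. The 343 calls became 211 and 212 when Dia 6d replicates 1 and 2 were left out, 142, 1017 and 657 when Dia 1m replicates 1, 2 and 3 were left out, and 39 and 42 when Dev replicates 1 and 2 were left out.

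At least 1 of these 4 contrasts called 634 broad peaks (18.5%, beside 14.7% of all and 24.4% of matched narrow peaks). All 4 called 18. Of these, 8 were higher in diapause (0.233%, beside 0.197% of all and 0.450% of matched narrow peaks). The other 10 were lower in diapause (0.292%, beside 0.0961% of all and 0.141% of matched narrow peaks). The 8 included peak_28150, peak_33387, peak_48740, peak_54359 and peak_56711, and the 10 included peak_3520, peak_4536, peak_10235, peak_47456 and peak_55374. Peak_5456 missed the threshold against Dev at Dia 6d (adjusted p = 0.0511), and peak_37754 missed it against Dev at Dia 1m (adjusted p = 0.0592).

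Between the development stages, 3 broad peaks were higher in Dev than in Pre-Dia and none was lower (0.0875%, beside 0.0862% of all peaks in either direction), with 598 at an unadjusted p below 0.05 (17.4%, beside 14.1% of all peaks), 3 by edgeR and 87 by DESeq2. The median log2 difference of Dev against Pre-Dia was 0.21 over broad peaks, 0.24 over matched narrow peaks and -0.01 over all peaks. The Dev libraries were also the deepest and the Pre-Dia libraries the shallowest. Peak_15249, at NC_029653.1:14977795-14978856, had 436 and 306 normalized reads in Dev and 89.5 and 81.1 in Pre-Dia (log2 difference 2.09 ± 0.40, adjusted p = 0.0399). Peak_41367 had 195 and 183 in Dev and 63.0 and 42.0 in Pre-Dia (1.85 ± 0.38, adjusted p = 0.0499). Peak_15220, at NC_029653.1:13271927-13272946, had 336 and 219 in Dev and 80.6 and 72.1 in Pre-Dia (1.82 ± 0.36, adjusted p = 0.0448), and with 538 and 481 in Dia 6d and 412, 515 and 226 in Dia 1m it was also higher in the pooled contrast (1.57 ± 0.25, adjusted p = 0.000150). In peak_15249 the Dia 6d libraries, at 300 and 362, were at the level of Dev, whereas in peak_41367, at 117 and 79.4, they lay between both development stages. All 3 calls sat at the threshold: none was left without any 1 of Dia 6d replicates 1 and 2, Dia 1m replicate 1, Pre-Dia replicates 1 and 2 or Dev replicates 1 and 2, and 217 and 347 broad peaks were called without Dia 1m replicates 2 and 3.

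Between the diapause stages limma called 0 broad peaks (beside 0.0282% of all peaks), with 201 at an unadjusted p below 0.05 (5.86%, beside 8.21% of all peaks), 0 by edgeR and 7 by DESeq2. The median log2 difference of Dia 1m against Dia 6d was 0.07 over broad peaks. Without Dia 1m replicate 2 there were 88 calls and without Dia 1m replicate 3 there were 14. Leaving out a Dia 1m library changes both the Dia 1m mean and the estimate of spread. Which of these moved the count was not tested.

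Where a called broad peak had a close neighbour that was also called, the neighbour mostly moved the same way, though most called broad peaks had no such neighbour. Of the 219 higher broad peaks, 105 had their nearest peak within 5000 bp, and of these neighbours 32 (30.5%) were higher in diapause and 0 were lower. Of the 282 lower broad peaks, 111 had such a neighbour, of which 27 (24.3%) were lower and 3 were higher. Around the 1232 uncalled broad peaks with such a neighbour, 81 neighbours (6.57%) were higher and 60 (4.87%) were lower. With gaps of 1000 to 5000 bp only, 24 of 72, 16 of 76 and 54 and 35 of 704 neighbours gave the same order. Without Dia 1m replicate 3, 103 of 261 neighbours of higher broad peaks were higher and 8 lower. With any 1 library left out, 18.6% to 39.5% of the neighbours of higher broad peaks were higher and 10.4% to 30.2% of the neighbours of lower broad peaks were lower, with 18.6% for the first share without Pre-Dia replicate 1 and with 10.4%, 15.6%, 12.5%, 10.9% and 13.6% for the second without Dia 6d replicate 2, Pre-Dia replicates 1 and 2 and Dev replicates 1 and 2. Neighbouring peaks share libraries, and no test was run on these counts.

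Broad peaks seldom lay in runs. With a gap below 10000 bp between broad peaks there were 132 runs of 2, 3 runs of 3 and 1 run of 5, and 3150 broad peaks stood alone. Of the 132 pairs, 3 had both peaks higher, 3 had both lower, 0 had 1 of each, and 97 had no call. The run of 5, peak_42381 to peak_42390 on NC_029664.1, had pooled log2 differences of 0.38, 0.62, 0.32, 0.37 and 0.54, none of which passed the test (adjusted p of 0.120 to 0.399). All 5 were highest in Dia 1m replicate 2.

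In a run of 3 on NC_029660.1 all peaks were called higher in diapause in the pooled contrast. Peak_35716, at NC_029660.1:37362654-37363780, had 300 and 307 normalized reads in Dia 6d, 272, 358 and 142 in Dia 1m, 91.7 and 107 in Pre-Dia and 245 and 138 in Dev (log2 difference 0.99 ± 0.26, adjusted p = 0.0123). Peak_35718 had 264 and 319 in Dia 6d, 260, 317 and 178 in Dia 1m, 113 and 132 in Pre-Dia and 276 and 160 in Dev (0.73 ± 0.24, adjusted p = 0.0454). Peak_35719 had 283 and 278 in Dia 6d, 179, 258 and 92.2 in Dia 1m, 70.7 and 54.1 in Pre-Dia and 249 and 130 in Dev (1.01 ± 0.27, adjusted p = 0.0156). In all 3 peaks the diapause and development libraries overlapped, with Pre-Dia lowest and Dia 1m replicate 3 lowest of the diapause libraries. Dev replicate 1 lay within the range of the diapause libraries in each, so that the run did not stand above both development stages. The remaining runs of 3 held no called peak. Their pooled log2 differences were -0.18, -0.26 and 0.29 on NC_029662.1 and 0.09, -0.27 and 0.20 on NW_015445464.1. Runs were defined by spacing, and the run given in full was picked after its values were seen.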

How the data were processed

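As the methods of the study and its processing notes state, reads were trimmed (Trim Galore 0.4.1), mapped to Nfu_20140520 (Bowtie2 2.2.5) and cleared by the authors of duplicates (Picard 2.22.1) and poorly mapped reads (SAMtools 1.5), then shifted for Tn5 (deepTools 3.2.1), and peaks from MACS2 2.1.1.20160309 were merged into consensus peaks. The deposited signal is named RPKM, but in every column 100% of values are whole multiples of 1 read within 0.01 reads, so it is reads per peak times a library factor. Widths were deposited in bp (another unit), as end minus start plus 1. No deposited value column of this table was left out (0).

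limma 3.58.1 (R 4.3.3, trended prior, 4 stages, 5 residual degrees of freedom, two-sided) was fitted to log2(value + 1) with Benjamini-Hochberg adjustment over 60359 peaks. No filter was applied, and fold changes of low peaks are understated. Recovered read counts, from the deposited signal, were tested with edgeR 4.0.16 (quasi-likelihood, TMM) and DESeq2 1.42.0 as alternatives. The test was checked on simulated data with the same spread for all peaks and no outlying library. The check therefore does not cover libraries that stand apart, such as Dia 1m replicate 3.

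Named peaks are the 6 largest increases and 6 largest decreases past the threshold with separated groups, the 3 widest, strongest and steadiest, up to 3 per direction called for Dev against Pre-Dia and Dia 1m against Dia 6d, and 2 on each side of 1000 bp. Members and lists were chosen with earlier results of these data known. Gene groups and sequence features were not analysed here.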

Additional observations from a re-analysis of the deposited data

Results flagged for a closer look

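A library far from the others of its state was looked for among 58 groups of 5 diapause or 4 development libraries, by the gap to the nearest library over the whole range against Dixon's critical value. Chance alone gives about 1 in 20 groups, and 4 of the 58 were found. Dia 1m replicate 3, at 0.19 for the median log2 value of broad minus matched narrow peaks, lay apart from the other diapause libraries (gap over range 0.805). Dia 6d replicate 2, at 108 normalized reads, lay above the other diapause libraries in peak_47456 (0.876). Dev replicate 1, at 179 normalized reads, lay above the other development libraries in peak_4536 (0.914). Dia 1m replicate 2, at 452 normalized reads, lay above the other diapause libraries in peak_574 (0.827).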

How the results depend on the processing

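Counts of calls rest on few libraries and moved with most settings. The differences between broad and matched narrow peaks kept their signs under the fewer settings tried for them. Those were other ways of matching, quantile normalization, edgeR, DESeq2 and single libraries left out. The matched differences were not computed for the replicate block, the pseudocounts, the filter, the fit on value per kb or other widths. In the order pooled higher, pooled lower, Dia 6d against Pre-Dia, Dia 6d against Dev, Dia 1m against Pre-Dia, Dia 1m against Dev, Dev against Pre-Dia and Dia 1m against Dia 6d, the counts were 219, 282, 197, 33, 397, 343, 3 and 0. A pseudocount of 0.5 or 5 and a filter at a mean of 10 left all counts within 1.5 times. With value per kb they were 102, 169, 40, 6, 180, 147, 0 and 0, and with quantile normalization 272, 566, 456, 114, 625, 543, 24 and 0. edgeR gave 290, 312, 212, 54, 439, 513, 3 and 0, and DESeq2 gave 339, 330, 328, 138, 562, 592, 87 and 7. Peaks of at least 800 bp gave 471, 630, 437, 77, 838, 774, 4 and 2, and peaks of at least 1500 bp gave 26, 34, 24, 2, 50, 39, 0 and 0, where the number of peaks differs by construction. With only the groups compared in the fit, the pairwise counts were 1111, 662, 110, 121, 742 and 0 for the 6 pairs in the same order. Otherwise the cause was not tested.

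Pairing by replicate number was not seen: same-numbered libraries of different stages correlated between -0.232 and 0.0396 in their deviations from the stage means. In a stage of 2 libraries the deviations mirror each other, so that these values do not settle whether replicates were paired. With the replicate block the counts were 517, 425, 612, 246, 941, 551, 266 and 6. In the block Dia 1m replicate 3 stands alone under its number.

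Leaving out 1 library gave 62 to 555 higher and 116 to 538 lower broad peaks in the pooled contrast. For the pairs in the same order it gave 3 to 699, 2 to 310, 51 to 1021, 39 to 1017, 0 to 347 and 0 to 88 calls. The difference of broad from matched narrow peaks was then -12.3 to -2.58 points for higher calls, 0.92 to 4.39 points for lower calls, and -0.18 to -0.086 for the median log2 difference, against -6.12, 2.52 and -0.15 with all libraries. Matching on value per kb gave -3.18 points for higher calls and -0.053 for the median, and quantile normalization gave 5.95 points for lower calls. edgeR, DESeq2, leaving out the strongest peaks, and the gap limits for neighbours were added after seeing the data for the matched difference, the share of reads and the neighbours. The 3 peaks called between Dev and Pre-Dia kept their direction throughout and lost the call in 25 of 54 cases. With 2 or 3 libraries per stage, the smallest log2 difference called among broad peaks in the pooled contrast was 0.66.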
